A study of Mus musculus with 9 samples.

Results

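H3K27 acetylation (H3K27ac), a histone mark of active promoters and enhancers, was described at 7 transcription factor genes in naive CD8+ T cells that lack Tcf1 and Lef1 and in their controls. The genes are 3 SOX genes (Sox4, Sox5 and Sox13), the 3 E protein genes (Tcf3, Tcf4 and Tcf12) and the inhibitor gene Id1, chosen by name from the 22238 protein-coding gene symbols of the annotation. Each gene was given the window from its gene body to 50 kb upstream of its 5′ start, and every called stretch of enrichment ("island") that shared at least 1 bp with the window was counted to it. Cells were sorted from the spleen as GFP+ TCRbeta+ CD62Lhi CD44lo-med CD8+ T cells. WT mice carried hCD2-Cre, a Rosa26 GFP reporter and unfloxed Tcf7 and Lef1 genes, and dKO mice carried the same Cre and reporter with Tcf7 fl/fl and Lef1 fl/fl. Both groups therefore shared the Cre transgene and the reporter. This Cre transgene recombines mainly after T cells have left the thymus, and a cell turns GFP+ once it has recombined the reporter. Mice of both sexes were 6 to 12 weeks old. There were 4 WT and 3 dKO H3K27ac samples and 1 input sample per genotype.

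SOX proteins bind DNA through an HMG box, the same kind of domain that Tcf1 and Lef1 use, and Sox4, Sox5 and Sox13 are known from the development of IL-17-producing gamma delta T cells. E proteins are basic helix-loop-helix factors that pair up and bind E boxes. Tcf3 encodes E2A, Tcf4 encodes E2-2 and Tcf12 encodes HEB. Despite their symbols, none of these is a close relative of Tcf1, the product of Tcf7. Id proteins have the helix-loop-helix part without the basic region, so they pair with E proteins and keep them off DNA. E2A and HEB act throughout thymocyte development, and E2-2 is a defining factor of plasmacytoid dendritic cells.

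The replicates of a genotype were pooled into 1 island list each, so the spread between mice cannot be given and no test between genotypes was possible. The WT list held 65563 islands with 82668007 counts over 392.7 Mb, and the dKO list held 82213 islands with 57665047 counts over 429.3 Mb. Counts were scaled to counts per 1000000 counts of their list (CPM), and ratios are the log2 of dKO over WT with a 95% Wilson interval that covers counting error only. A ratio of at least 1.5-fold either way (0.58 on the log2 scale) was called changed. In pooled bulk cells, fewer cells that carry the mark and less mark per cell cannot be told apart. The floxed genes themselves kept their islands. Tcf7 had 62899 counts in WT and 49281 in dKO (log2 count ratio 0.17) and Lef1 had 63497 and 36089 (-0.30), neither past 1.5-fold, so the mark over these genes does not report the deletion of their exons. All 10 naive CD8 T cell markers had a promoter island in both lists.

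The promoter sequences of members whose promoter marks are compared here are shown first. The E box and HMG box core letters that these factor families are known to bind are marked where present. RefSeq promoter windows of 250 bases before to 50 bases after a start site were at hand for 5 of the 7 genes (7 windows in all). Each was found at exactly 1 place in the mm9 genome, on the minus strand. The stretches below lie upstream of both the RefSeq and the GENCODE start site and are written 5′ to 3′. Capitals mark an E box (CANNTG, which includes the CAGGTG and CAGCTG forms), a TCF/LEF core (CTTTGA or CTTTGT) or a SOX core (ACAAT), each on either strand.
Sox13 (chr1:135320955-135321039, 85 bases): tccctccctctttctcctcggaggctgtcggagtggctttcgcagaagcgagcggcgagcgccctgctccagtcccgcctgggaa
Sox4 (chr13:29045583-29045818, 236 bases): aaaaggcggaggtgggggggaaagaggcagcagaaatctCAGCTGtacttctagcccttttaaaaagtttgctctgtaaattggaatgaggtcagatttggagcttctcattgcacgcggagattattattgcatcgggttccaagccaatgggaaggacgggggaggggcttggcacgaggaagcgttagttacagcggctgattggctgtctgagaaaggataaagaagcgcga
Tcf3 (chr10:79896393-79896630, 238 bases): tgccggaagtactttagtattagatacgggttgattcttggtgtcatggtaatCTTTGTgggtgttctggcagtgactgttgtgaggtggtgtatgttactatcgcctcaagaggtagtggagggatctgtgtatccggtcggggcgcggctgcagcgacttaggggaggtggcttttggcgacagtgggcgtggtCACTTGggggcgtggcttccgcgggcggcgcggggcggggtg
Tcf12 (chr9:71959627-71959876, 250 bases): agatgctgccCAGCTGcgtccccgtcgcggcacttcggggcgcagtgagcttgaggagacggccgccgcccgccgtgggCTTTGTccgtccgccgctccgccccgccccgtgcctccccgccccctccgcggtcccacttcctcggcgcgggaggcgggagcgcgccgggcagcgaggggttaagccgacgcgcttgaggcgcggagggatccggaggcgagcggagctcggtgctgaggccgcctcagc

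The full window of Sox13 held none of these letters and was 73.3% G and C. The Sox4 window held 1 E box, CAGCTG, 211 bases before the RefSeq start. The Tcf3 window held 1 E box, 54 bases before the start, and 1 CTTTGT, 197 bases before it. The Tcf12 window shown held CAGCTG 240 bases and CTTTGT 171 bases before the start. Such letters are common. Of 32841 mouse promoter windows, 72.3% held CANNTG, 20.2% CAGGTG, 16.3% CAGCTG, 16.0% CTTTGA, 18.7% CTTTGT and 31.0% ACAAT. A match is a description of the letters and does not show binding.

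Of the 7 genes, 1 was called lower in dKO (Id1) and 0 were called higher. Among the 16387 protein-coding genes that had islands in each list, 11.5% were called lower and 11.5% higher. The Id1 ratio turned to above 0 under other ways of dividing border islands, as given with that gene. Per covered kb, 0 of the 7 genes were called in either direction, against 0.421% of all genes higher and 9.28% lower. The median log2 count ratio of the 7 genes was 0.11, with 4 above and 3 below 0, and the median over all genes was -0.03. The median log2 ratio per covered kb was -0.17 for the 7 genes and -0.16 for all genes.

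**Figure D1:**
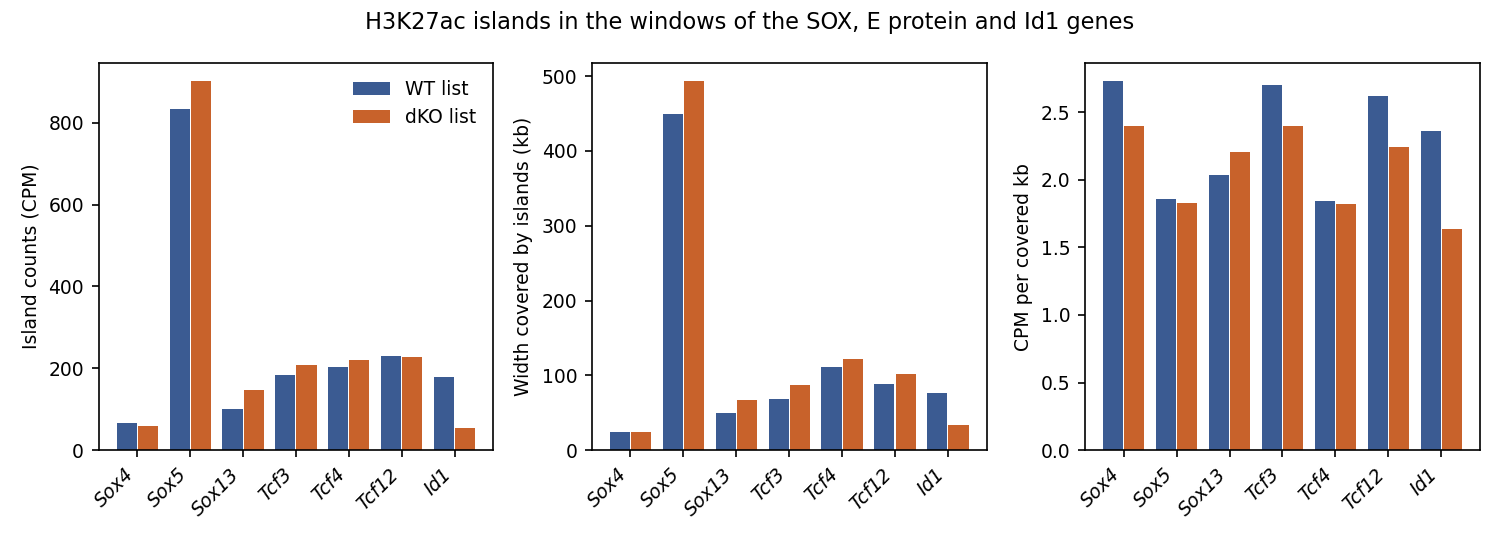
Island counts in CPM, width covered by islands (kb) and CPM per covered kb in the window of each gene, with the WT list in blue and the dKO list in orange. Each bar is 1 pooled list, so no error bar is drawn; Sox5 stands highest in counts and width, and Id1 is the gene whose dKO bar lies furthest below its WT bar.

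All 7 windows had more islands in the dKO list, as did 58.3% of all gene windows. Covered width was also greater in dKO for 6 of the 7 genes, the exception being Id1. Over all genes the median log2 width ratio was 0.17, and 65.1% of genes had wider cover in dKO. The WT list held more counts on less covered sequence, with 210.5 counts per kb against 134.3 in dKO. The lists thus differed in counts per covered kb as well as in island number and width. The parts of depth and of enrichment in these differences were not tested.

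**Figure D2:**
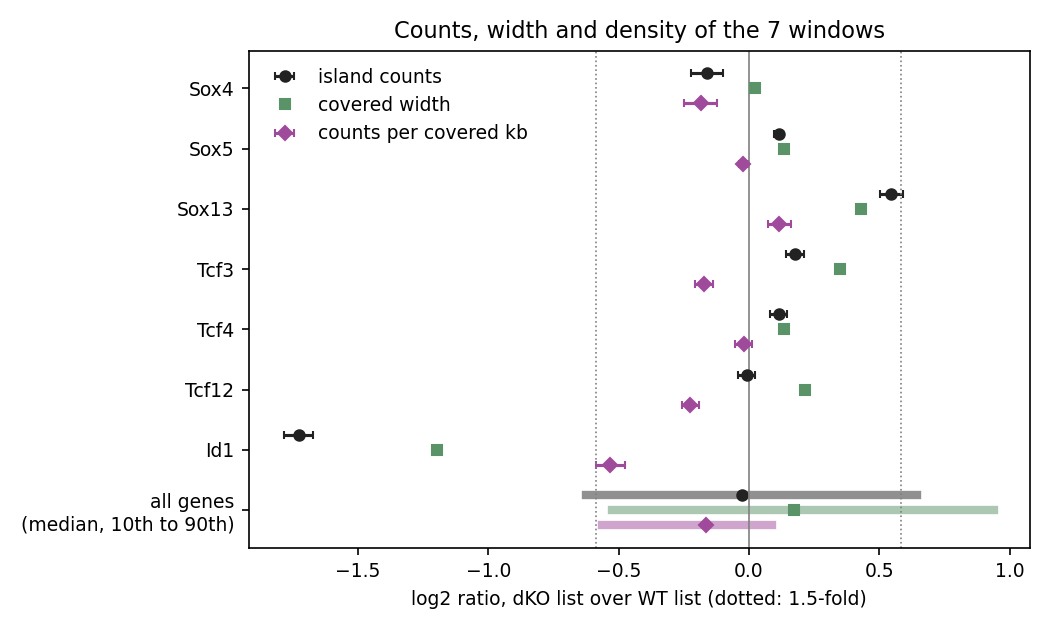
The log2 ratio of dKO over WT for island counts (circles), covered width (squares) and counts per covered kb (diamonds) of each window, with 95% Wilson intervals for counting error on the counts, and the median and 10th to 90th percentile of all genes in the bottom row. Sox13 sits at 0.55 and Id1 at -1.73 by counts, while all 7 diamonds lie between -0.53 and 0.12.

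Sox5 carried by far the most counts of the group, in by far the longest window. Sox5 (chr6:143776945-144730497, minus strand) encodes a SOX factor without a transactivation domain of its own. Its window of 1003.55 kb held 81 WT islands with 68825 counts over 449.0 kb and 108 dKO islands with 51942 counts over 493.0 kb. That is 832.5 CPM in WT and 900.8 in dKO, rank 18 of 16387 genes by WT counts and rank 16 in dKO. Per covered kb the level was 1.85 CPM in WT and 1.83 in dKO, among the lowest of the group. Only Tcf4 was lower in WT, and only Tcf4 and Id1 were lower in dKO. The log2 count ratio was 0.11 (0.10 to 0.13) and the ratio per covered kb was -0.02 (-0.038 to -0.0048).

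The islands of Sox5 were spread over its whole body, 43.8% of which was covered in WT and 48.0% in dKO, and over 58.2% and 65.8% of the 50 kb upstream. WT islands ranged from 152 to 3869 counts (median 497) and dKO islands from 81 to 3506 (median 271.5). When islands of the lists were merged into regions wherever they overlapped, the window had 91 regions, 60 in both lists, 25 in dKO only and 6 in WT only. The 25 dKO-only regions held 5166 counts together, a small part of the dKO total of the window.

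Single regions of Sox5 moved in opposite directions. The region with the largest ratio up, chr6:144400801-144406200 in an intron 324.3 kb from the 5′ start, had 201 WT counts over 1.6 kb and 415 dKO counts over 4.6 kb (log2 count ratio 1.57). The region with the largest ratio down, chr6:143966801-143972200 (exon and intron, 758.3 kb from the start), had 657 WT counts over 5.4 kb and 102 dKO counts over 1.2 kb (-2.17). In both of these the ratio followed the width of the islands: per covered kb the log2 ratios were 0.04 and 0.00. The region with the most counts over both lists together, 126.9 kb into the gene, had 4850 WT and 3898 dKO counts (0.20). In WT alone a region 101.7 kb into the gene had more, 5074 counts, and it had 3506 in dKO. All 12 transcript starts of Sox5 lay within 1 kb of an island in both lists.

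Sox13 came closest to the 1.5-fold line among the genes not called. Sox13 (chr1:135278880-135320954, minus strand) is the SOX gene best known as a marker of the gamma delta T cell lineage. Its window held 8331 counts in 6 WT islands over 49.6 kb and 8482 counts in 7 dKO islands over 66.8 kb, or 100.8 and 147.1 CPM. Its log2 count ratio was 0.55 (0.50 to 0.59), rank 2042 of 16387 from the top, and per covered kb it was 0.12 (0.07 to 0.16). With the lists scaled so that the median region ratio was 1, Sox13 passed 1.5-fold (0.62).

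The difference at Sox13 had 2 parts. In the gene body, 4 WT islands of 4.4 to 16.0 kb with gaps between them faced 2 dKO islands, of which the larger ran unbroken for 29.6 kb from the 5′ start with 4480 counts. With island counts divided in proportion to overlap, the body had a log2 count ratio of 0.57 and 79.1% of it was covered in WT against 98.1% in dKO. Upstream, 20.1% was covered in WT and 44.8% in dKO, with a log2 count ratio of 0.97 (0.88 to 1.06). There, 3 regions were in the dKO list only, 34.45, 39.25 and 45.85 kb from the start, with 225, 326 and 424 counts. Islands lay at 3 of the 5 transcript starts of Sox13 in WT and at all 5 in dKO.

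Sox4 (chr13:29040788-29045582, minus strand) encodes an activating SOX factor in a gene with a single exon. Its window held 5454 counts in 5 WT islands over 24.2 kb and 3401 counts in 7 dKO islands over 24.6 kb, or 66.0 and 59.0 CPM. On the log2 scale the count ratio was -0.16 (-0.22 to -0.10), but with counts divided by overlap it was 0.41. The sign turned because the WT island over the gene was 13.4 kb wide with 3545 counts and only 44.9% of it lay in the window, the rest running downstream. In dKO the same stretch was split into separate islands, of which the island over the 5′ start was 4.6 kb wide with 1372 counts. That dKO island was the densest of the Sox4 window, at 5.17 CPM per kb against 3.20 for the WT island over the start.

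The other regions of Sox4 were upstream. The region that began 3.62 kb upstream had 897 WT counts over 3.0 kb and 730 dKO counts over 5.4 kb, a log2 count ratio of 0.22 and a ratio per covered kb of -0.63, so the dKO island was wider and thinner. The dKO list had 2 regions without a WT island, with 339 counts together. Upstream cover was 24.0% in WT and 38.8% in dKO.

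**Figure D3:**
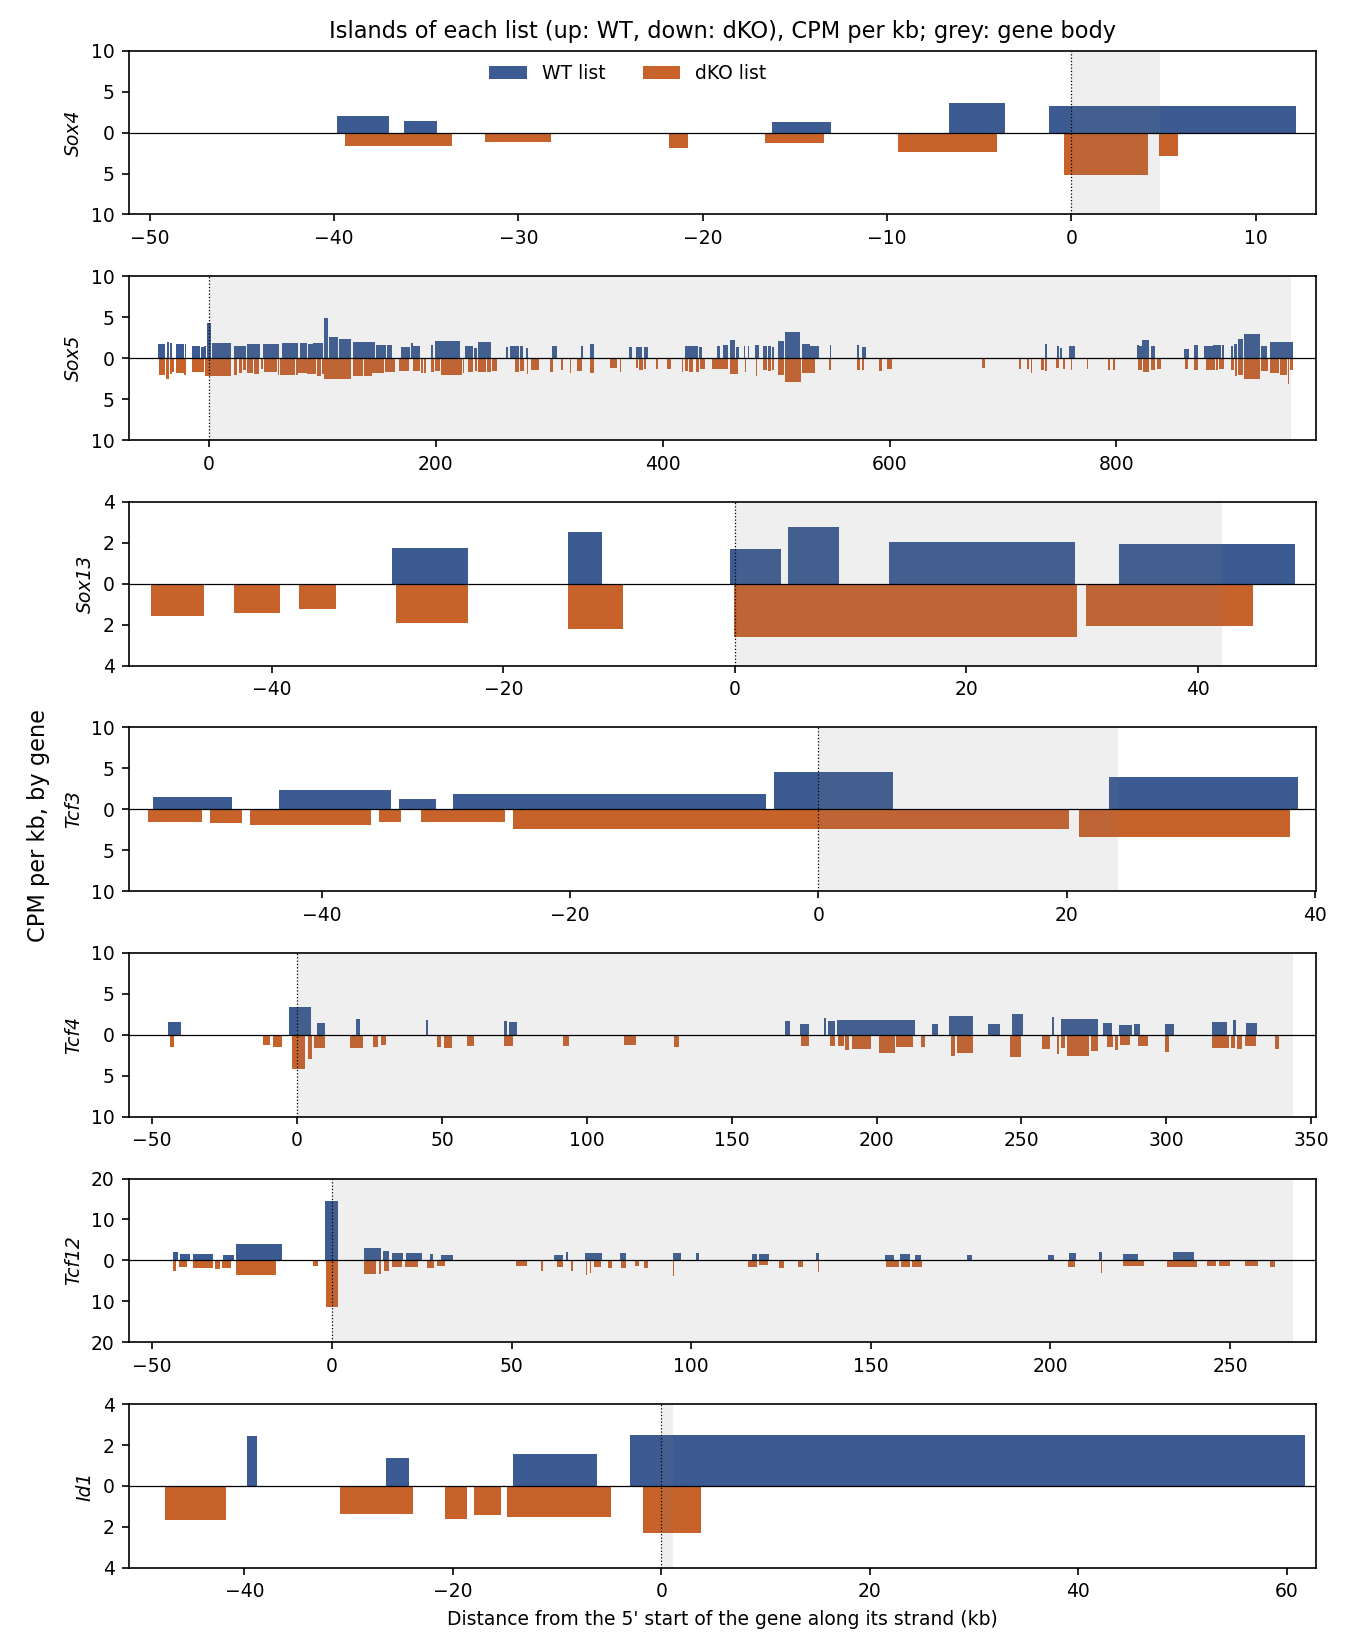
Islands in the window of each gene by distance from its 5′ start along its strand (kb), with WT islands drawn upward in blue and dKO islands downward in orange; bar width is island width and bar height is CPM per kb, and the gene body is grey. The wide WT island at Id1 runs to 61.8 kb past the start, and the Tcf3 body, partly empty in WT, is nearly filled by a dKO island.

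Among the E proteins, Tcf3 showed the clearest difference in the shape of its islands. Tcf3 (chr10:79872259-79896392, minus strand) had 15271 counts in 6 WT islands over 68.4 kb and 12050 counts in 7 dKO islands over 87.2 kb, or 184.7 and 209.0 CPM. The log2 count ratio was 0.18 (0.14 to 0.21) and the ratio per covered kb was -0.17 (-0.21 to -0.14). In WT the 5′ start lay in an island of 9.6 kb with 3622 counts, and the middle of the gene had none. In dKO a single island of 44.8 kb with 6282 counts ran from 24.6 kb upstream to 20.2 kb into the gene.

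Cover of the Tcf3 body was thus 27.9% in WT and 96.7% in dKO. With counts divided by overlap the body had a log2 count ratio of 0.98 (0.91 to 1.05) and a ratio per covered kb of -0.81, while the 50 kb upstream stood at 0.06. Dividing by overlap assumes that reads lie evenly along an island, which a wide island with a dense promoter would not meet. Of 11 transcript starts, 8 had an island in WT and all 11 in dKO, the added 3 being internal starts 11.79 to 18.16 kb from the 5′ start. Islands at the 3′ end of the window, with 4880 WT and 3279 dKO counts, reached over the neighbours Uqcr11 and Mbd3 outside it.

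Tcf12 (chr9:71692059-71959626, minus strand) had the densest region over a 5′ start of the 7 genes and the lowest count ratio there. That region was also the narrowest. WT islands in the regions of the other genes covered 7.6 kb (Tcf4) to 107.8 kb (Id1), so the densities are averages over unlike widths. The island over its 5′ start held 4314 WT counts on 3.6 kb and 2210 dKO counts on 3.4 kb, or 14.5 and 11.3 CPM per kb. The log2 count ratio of this promoter region was -0.45 (-0.52 to -0.37), and per covered kb it was -0.36. The median over all promoter regions marked in each list was -0.19. The region from 13.78 kb upstream (chr9:71973401-71986400) held slightly more counts, 4348 in WT and 2306 in dKO, with a ratio of -0.40.

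Over the whole Tcf12 window these decreases were offset by the rest. The window held 18991 counts in 30 WT islands over 87.8 kb and 13168 counts in 43 dKO islands over 102.0 kb, with a log2 count ratio of -0.01 (-0.04 to 0.02), which turned to 0.06 when the lists were scaled by the median region. The gene body stood at 0.16 and the 50 kb upstream at -0.25 with counts divided by overlap. The region with the largest ratio up, in an intron 26.43 kb from the start, had 102 WT and 212 dKO counts (1.58). The region with the largest ratio down, 94.83 kb from the start, had 373 WT counts over 2.4 kb and 45 dKO counts over 0.2 kb (-2.53). That dKO island is 1 window of the island caller. The annotated gene Rpl15-ps2 also lies in the window.

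Tcf4 (chr18:69503800-69847621, plus strand) had 16870 counts in 25 WT islands over 110.6 kb and 12739 counts in 42 dKO islands over 121.4 kb, or 204.1 and 220.9 CPM. Its log2 count ratio was 0.11 (0.08 to 0.15) and the ratio per covered kb was -0.02 (-0.05 to 0.01). The densest island in each list lay over the 5′ start, at 3.43 CPM per kb in WT and 4.14 in dKO. The leading region, 186.2 kb into the gene, was a single WT island of 27.2 kb with 4099 counts and 5 dKO islands over 21.2 kb with 2182 counts, a ratio of -0.39. Upstream, the region 40.0 kb before the start had 552 WT and 119 dKO counts (-1.69), while an intronic region 18.4 kb in had 220 and 375 (1.29). Of 14 transcript starts, 10 had an island in each list, and these were not all the same: 1 start 219.19 kb in had a WT island only and 1 start 338.23 kb in a dKO island only.

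Since E2-2 defines plasmacytoid dendritic cells, the markers of that cell type were read beside Tcf4. Of the 6 markers, 4 had a promoter island in both lists, Tcf4 among them, and Siglech and Klk1 had no island in their windows in either list. The summed level of the 6 marker windows was 672.6 CPM in WT and 789.4 in dKO. Most of that difference came from Bst2, an interferon-induced marker that T cells also express, with 134.3 and 241.1 CPM (log2 count ratio 0.84, called higher). Beside Tcf4 (0.11), Spib stood at -0.12 and Ccr9 at -0.0019, and 0 of the 6 were called lower. The part of other cells in these values was not tested.

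Id1 (chr2:152561987-152563146, plus strand) was the gene called changed, and its call rested on where an island ended. Its window held 14832 counts in 4 WT islands over 76.0 kb and 3128 counts in 6 dKO islands over 33.2 kb, or 179.4 and 54.2 CPM. This gave a log2 count ratio of -1.73 (-1.78 to -1.67), rank 16205 of 16387, and of -0.53 per covered kb (-0.59 to -0.48). Of the WT counts, 13356 came from an island of 64.8 kb that began 2.99 kb upstream of Id1 and ran past it over Cox4i2 and into Bcl2l1. Only 6.40% of that island lay in the Id1 window. In dKO the same stretch was broken up, and the island over Id1 was 5.6 kb wide with 740 counts.

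With islands of both lists merged where they overlapped, the Id1 promoter lay in 1 region of 109.8 kb (chr2:152559001-152668800) with 3 WT and 11 dKO islands. It held 22349 WT counts over 107.8 kb and 14911 dKO counts over 100.4 kb, with a log2 count ratio of -0.06 (-0.09 to -0.03). With counts divided by overlap, the Id1 body stood at -0.12 (-0.41 to 0.17), and the window as a whole turned to 0.77. The densities of the islands over the start were 2.49 CPM per kb in WT and 2.29 in dKO. Between Id1 and 50 kb upstream, where H13 and Mcts2 lie, cover was 28.4% in WT and 58.8% in dKO, with a log2 count ratio of 0.85 (0.76 to 0.93). The upstream region with the largest ratio up, 23.79 kb from the start, had 248 WT counts over 2.2 kb and 552 dKO counts over 7.0 kb (1.67).

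**Figure D4:**
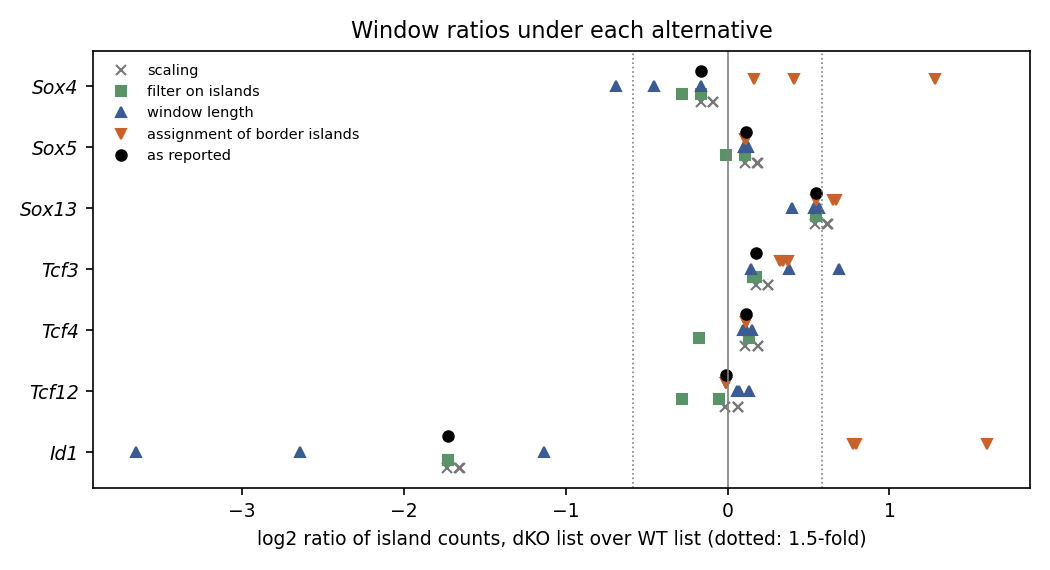
The log2 count ratio of each window as reported (black circles) and under the alternatives for scaling, island filters, window length and assignment of border islands, with dotted lines at 1.5-fold. Id1 spans -3.65 to 1.60 and Sox4 -0.69 to 1.28, while Sox5, Tcf4 and Tcf12 remain between the dotted lines throughout.

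At the 7 promoters, the regions over the 5′ starts gave 0 calls in either direction, against 3.38% of all promoter regions higher and 10.7% lower. Each value is for the whole merged region that met the promoter, for all genes alike. WT islands in it covered 3.6 kb at Tcf12, 24.8 kb at Sox13, 46.8 kb at Tcf3 and 107.8 kb at Id1. The ratios of the wide regions therefore describe far more than the promoter. The log2 count ratios ran from -0.45 (Tcf12) over -0.23 (Tcf4), -0.21 (Sox4), -0.06 (Id1), 0.01 (Sox5) and 0.28 (Tcf3) to 0.57 (Sox13, 0.51 to 0.63). The interval of Sox13 reached past 1.5-fold. Joining islands within 1 kb took the sign from Sox4 (0.0044), lowered Sox13 to 0.42 and Tcf3 to 0.17, brought Tcf4 to -0.07 and Sox5 to 0.08, and left Tcf12 at -0.45 and Id1 at -0.06. Sox13 also had the highest ratio per covered kb of these regions, 0.31, and its region lay mostly over the gene body.

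Over all 7 windows there were 198 merged regions, 118 of them in both lists. Of the 198, 63 (31.8%) were in the dKO list only and 17 (8.59%) in the WT list only, against 28.1% and 12.8% of all regions. The dKO-only regions were small, with 60 to 549 counts (median 159) and 0.4 to 6.8 kb wide. The WT-only regions had 100 to 442 counts (median 202). Of the 118 common regions, 16 (13.6%) were called higher and 12 (10.2%) lower, against 11.1% and 14.6% of all common regions. Per covered kb, 4 were called higher and 1 lower, against 1.17% and 4.51%. The called regions were not at 5′ starts: 13 of the 28 called by counts lay at Sox5, 8 at Tcf4, 6 at Tcf12 and 1 at Id1, with 0 at Sox4, Sox13 and Tcf3.

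Islands stitched at the default distance of the ROSE method and ranked by counts gave 1138 super-enhancers (SEs, the domains above the bend of the rank curve) in WT and 973 in dKO. Sox5 and Id1 windows met an SE in both lists, Sox4, Sox13 and Tcf3 windows in dKO only, and Tcf4 and Tcf12 windows in neither. That is 2 of 7 windows in WT and 5 of 7 in dKO, where 33.5% and 40.6% of all 16387 gene windows met an SE. The Sox5 domain ranked 189 in WT with 55847 counts and 87 in dKO with 67085. The Id1 domain, which spans Bcl2l1, Tpx2 and other genes, ranked 435 and 405.

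The SEs found in dKO only went with wider stitched domains, and the count ratios over the same intervals were below 1.5-fold. At Sox4, the WT domain was 43.8 kb wide with 5941 counts (rank 3170) and the dKO domain 577.4 kb wide with 45474 counts (rank 205), nearly all of it downstream of the gene. Over those 577.4 kb the WT list had 76 islands with 64027 counts in 4 separate domains, and the dKO list 78 islands in 1 domain, a log2 count ratio of 0.03 (0.01 to 0.04). At Sox13, the dKO domain of 212.2 kb held 15 WT islands with 17349 counts in 3 domains and 21 dKO islands with 16268 counts, a ratio of 0.43 (0.40 to 0.46). At Tcf3, the dKO domain of 144.2 kb held 19305 WT counts and 16584 dKO counts, a ratio of 0.30 (0.27 to 0.33). With stitching within 5 kb, 3 of the 7 genes met an SE in dKO (Sox5, Tcf3 and Id1), and with 20 kb Sox4 met an SE in WT too.

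Relatives and partners were read from fixed lists with the same windows and the same background of 11.5% each way. Of 20 SOX genes, 12 had islands in each list, 1 was called higher (Sox15, log2 count ratio 0.73, with 3541 counts over 10.8 kb in WT and 4103 over 34.6 kb in dKO) and 0 lower. The median of the 12 was -0.08. Per covered kb the calls turned to 0 higher and 2 lower, Sox15 (-0.95) and Sox12 (-0.71), so the higher counts at Sox15 went with wider islands. Sox8 stood at 0.44 and Sox30 at -0.49. No island was found for 6 SOX genes, Sox2, Sox3 and Sox9 among them, and Sox17 had a dKO island only, with 182 counts.

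The 4 TCF/LEF genes gave 0 calls, with a median of -0.28, Tcf7l2 at -0.49 and Tcf7l1 at -0.26. Of the 7 E protein and Id genes, 6 had islands in both lists, 0 were called higher and Id1 was called lower. Id2 and Id3 are the Id genes that CD8 T cells use. Id2 had 19272 counts over 93.2 kb in WT and 9197 over 70.6 kb in dKO, a log2 count ratio of -0.55 (-0.58 to -0.51), just short of the call. Id3 had 20606 and 17626 counts, a ratio of 0.29 (0.27 to 0.32). Id4 had no island.

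Of 25 class II helix-loop-helix genes, which pair with E proteins, 10 had islands in both lists, with 1 called higher (Mesp1, 1.51, 505 and 1002 counts) and 1 lower (Hand1, -2.65, 694 and 77 counts). Neither had a promoter island. Tal1, whose product pairs with E proteins in blood progenitors, stood at -0.53 and Scx at 0.39. Of the corepressors that bind E proteins, Cbfa2t3 was called higher (0.81, 17110 and 20886 counts) and Cbfa2t2 stood at 0.45. Among 6 Wnt and beta-catenin partners, Nkd1 was called higher (2307 and 3826 counts, or 27.9 and 66.4 CPM), with Tle4 at -0.46, Ctnnb1 at -0.33 and Axin2 at 0.21.

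E protein targets in T cell development gave 4 calls higher and 1 lower of 15, with a median of 0.13. Cdkn1a, a cell cycle inhibitor, had 3849 WT and 7398 dKO counts (1.46), Hes1, a Notch target, 4022 and 7677 (1.45), and Cd3e 13918 and 18293 (0.91). Il7r, which encodes the IL-7 receptor alpha chain, had 18981 and 8726 counts and was called lower (-0.60). Per covered kb 0 of the 15 were called.

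The gamma delta T17 list, which Sox4, Sox5 and Sox13 belong to, gave 5 calls higher and 1 lower among its 14 genes marked in each list, and the median was 0.19. Maf, a factor of IL-17-producing cells, had 1032 WT counts over 3.2 kb and 4876 dKO counts over 38.2 kb (log2 count ratio 2.76, and -0.82 per covered kb). Blk, a kinase of gamma delta T17 cells, had 2234 counts over 14.4 kb and 4921 over 51.6 kb (1.66, and -0.18 per covered kb). The authors list Blk as a gene enriched in B cells. Zbtb16, which encodes PLZF, had 8336 counts over 57.8 kb and 15628 over 148.6 kb (1.43, and 0.06). Cd163l1 had 12727 and 16960 counts (0.93, and 0.58), and 5830411N06Rik, named here after its value was seen, had 18629 and 20859 (0.68, and 0.69). The windows of Cd163l1 and 5830411N06Rik overlap on chromosome 7. Islands in the shared stretch were counted to both genes, so their calls are not independent. Il17f, which had no promoter island in either list, was the gene called lower (-0.67), and Il17a had no island. Among the 3 SOX genes of that list, 0 were called.

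Markers of other cells were read beside Sox13, since it also marks gamma delta T cells. The list of 5 gamma delta T cell markers includes Sox13 itself, so its sum is not independent of that gene. Maf and Blk were called higher and 0 lower, and the summed level was 369.1 CPM in WT and 543.0 in dKO. Blk is also among the B cell genes of the authors, so its call is not particular to gamma delta T cells. Of the dKO sum, Sox13 contributed 147.1 CPM (100.8 in WT), Blk 85.3 and Maf 84.6. Il23r stood below 0, with 102.6 and 91.2 CPM (-0.17). All 5 had a promoter island in both lists. Summed levels were also higher in dKO for the 5 CD4 T and Treg markers (748.7 and 866.5), 6 B cell markers (680.7 and 788.9), 5 NK cell markers (505.4 and 599.5) and 6 myeloid markers (636.6 and 736.9), but the members of these lists did not move together. CD4 T and Treg markers gave 0 calls, with Ctla4 below 0 (-0.17) and the other 4 above. B cell markers gave 0 calls, with Cd79b at 0.36 and Ebf1 lowest (-0.55). NK cell markers gave 1 call higher, Klrd1 (0.60), with Eomes at -0.32. Of the myeloid markers, Sfpi1, which encodes PU.1, was called higher (169.6 and 271.0 CPM, 0.68) and its difference was as large as that of the summed level, while Csf1r stood at -0.13, Cebpa at -0.03 and Itgam at -0.01. Sums were lower for the 10 naive CD8 T cell markers (3165 and 2713), of which 3 were called lower and 1 higher. The lower were Ccr7 (754.2 and 366.9 CPM, -1.04), which made up most of the fall, Cd8b1 (-0.85) and Il7r (-0.60). Cd3e was the marker called higher (0.91), and Cd3d (0.56) and Thy1 (0.34) also stood above 0. Cd3g, whose window overlaps those of Cd3e and Cd3d, stood at -0.06. Markers of these cell types that belong to no other list were named after their values were seen. The defining markers Pax5, Ebf1, Ncr1 and Csf3r had no promoter island in either list. The cells were gated on TCRbeta and CD8, and the part of other cells in the Sox13 values was not tested.

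The protein-coding gene whose window was most like that of each member, by the Euclidean distance over log2 WT counts, log2 count ratio and log2 width ratio across the 2 lists, was Mettl21a for Sox4 (distance 0.03), Dad1 for Sox5 (0.11), Ly9 for Sox13 (0.04), 1700023F06Rik for Tcf3 (0.01), Ppp1cc for Tcf4 (0.02), Frmd4a for Tcf12 (0.01) and Zfp51 for Id1 (0.16). Between 16375 and 16379 genes were compared for each.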

How the data were processed

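H3K27ac ChIP-seq was made from WT and dKO naive CD8+ T cells. The authors aligned reads to mm9 with Bowtie2 (version 2.2.5), retained reads that mapped uniquely (MAPQ over 10), combined all replicates per genotype and ran SICER on each pool (version 1.1, window 200 bp, gap 400 bp, FDR 0.01). The deposited lists give 1 whole-number read count per island, not scaled for depth or width. The sources used here do not say how duplicate reads were treated. Input samples were not used here. A stretch without an island has no count, and a shift of an island's border changes its count.

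Here, starts were converted to count from 1, and islands were assigned to GENCODE vM1 genes (longest entry per symbol) with Python 3 and pandas. Counts were divided by the list total, and ratios, Wilson intervals, merged regions (at least 1 bp shared) and promoters (1 kb either side of a start) followed from these. Samples were grouped by the genotype in the labels. With 1 list per genotype there is no replicate check and no p-value. The reads carry no molecular identifiers and can be copies of a molecule, so intervals cover counting error only. The functions were run on simulated lists in which 200 gene windows were changed by known folds, and all 200 were called. All of those folds lay well beyond the 1.5-fold line, and island borders were the same in both simulated lists. The run therefore checks the arithmetic only. It cannot show how calls behave where island borders or widths differ between the lists. Promoter sequences are from RefSeq (GRCm38.p6), placed in mm9 by exact match.

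The 7 genes, the gene lists and the markers were chosen with earlier results of these data known. Named were the 7 genes, their leading, promoter and most changed regions (at least 200 counts in both lists together), neighbours, the nearest gene each, Id2, Id3, Tcf7, Lef1 and up to 4 genes per list with the largest absolute log2 count ratio. Of the listed symbols, Sox1, Ptcra, Gfi1 and Scart1 were not found in the annotation. The alternatives tried were other rules for border islands, windows, scalings, island filters, folds and stitching distances.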

Additional observations from a re-analysis of the deposited data

How the results depend on the processing

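No paired analysis was possible because each deposited list pools the replicates of a genotype, and leaving out a replicate was not possible either. At this depth the 95% counting intervals of Sox4 and Id1 were narrow beside the shifts between alternatives. The counts of all genes called stayed within 1.5 times of the main count except where given.

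Of the 7 genes, 0 were higher and 1 lower by counts. With islands that had at least 50% of their length in the window, 2 were higher (Sox4, 1.28, and Id1, 1.60) and 0 lower. With counts divided by overlap, 2 were higher (Sox13, 0.67, and Id1, 0.77) and 0 lower, and with islands joined within 5 kb, 2 were higher (Sox13, 0.65, and Id1, 0.79) and 0 lower. Id1 thus changed sign under these 3 rules. The 50% rule left out the 64.8 kb WT island at the window's border, and division by overlap counted part of it. Joining still counted it whole but also took in dKO islands beyond the border, for 23825 WT and 28771 dKO counts. In the gene body alone 1 was higher (Tcf3, 0.69) and 2 lower (Sox4, -0.69, and Id1, -3.65), and per covered kb 1 was lower (Tcf3, -0.63). Sox13 was called higher under scaling by islands shared between the lists (1 gene), scaling by the median region (1 gene) and the lower fold threshold (1 gene). Measured per covered kb, 0 of the 7 were lower. With stitching within 5 kb, 3 genes met a dKO SE. The log2 count ratios of Sox5 (-0.01 to 0.19), Tcf4 (-0.18 to 0.19) and Tcf12 (-0.28 to 0.13) were below 1.5-fold under all 11 alternatives for windows, scaling and islands.

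Over all genes, islands joined within 5 kb gave 3594 higher by counts, and 238 higher and 2390 lower per covered kb. Calls per covered kb numbered 69 higher as reported and also as a measure in place of counts, 186 with the gene body alone, 142 with 10 kb upstream, 117 and 118 under the scalings by shared islands and by the median region, and 151 with islands of at least 200 counts. At the lower threshold 3510 were higher and 3966 lower, and at 2-fold 788 and 637.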
